A study of Mus musculus with 26 samples.

Results

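The 35 genes described here are imprinted genes of 15 clusters, chosen by symbol from the 35976 rows of a table of read counts from mouse liver tumours and control liver, and all 35 were found. Genomic imprinting silences 1 parental copy of a gene, so that transcripts come from the maternal or the paternal allele. Imprinted genes sit in clusters, and within a cluster a differentially methylated region, often at the promoter of a noncoding RNA, sets which allele is read. In mouse liver, Igf2, H19, Dlk1 and Meg3 are abundant before birth and are turned down in the weeks after it. The counts do not separate the parental alleles, so every value is the sum of both.

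The libraries are bulk RNA sequencing of liver from 20 tumours and 6 controls. The first tumour group, called Cyp1a2_CA, carries Cyp1a2-CreERT2 with Ctnnb1(ex3)fl/+ and Arid2fl/fl and has 10 libraries from 9 animal numbers. The second, Gls2_CA, carries Gls2-CreERT2 with the same 2 alleles and has 9 libraries from 5 animal numbers. One library, CB6-L, is labelled Cyp1a2-CreERT2 with Ctnnb1(ex3)fl/+ and no Arid2 allele, and as a group of 1 sample it entered no test. Cyp1a2 is a gene of hepatocytes near the central vein and Gls2 of hepatocytes near the portal vein, so the 2 drivers start recombination in different zones. Loss of exon 3 of Ctnnb1 keeps beta-catenin from being degraded, and Arid2 is a subunit of a SWI/SNF chromatin remodelling complex. Tumour animals of a mixed C57BL/6J and Swiss Webster strain received tamoxifen on day 28 after birth and were followed for 6 to 12 months. The 6 WT controls were C57BL/6J given AAV-Cre and kept for up to 12 months. The genotype, strain, Cre delivery, tamoxifen and sequencing depth all differ between tumours and WT, so their parts in any difference cannot be told apart.

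Total counts were 36992043 to 49254470 in the tumours and 13486530 to 16975288 in WT. Levels are given as CPM, counts scaled to a common library total with TMM factors. Arid2 was 23.4 to 47.1 CPM in the tumours labelled with its deletion and 60.1 to 72.8 in WT, and CB6-L, labelled without it, had 42.5, inside the range of the tumours with the allele. The summed level of 9 hepatocyte markers was 9195 to 43115 CPM in Cyp1a2_CA, 4052 to 17648 in Gls2_CA, 445 in CB6-L and 79056 to 100072 in WT. Proliferation markers summed to 57.4 to 891 CPM in the tumours and 8.89 to 16.6 in WT, and neural markers to 68.6 to 986 and 25.7 to 31.2. The parts of cell makeup in the differences below were not tested. A set of 4 tumour libraries stands apart: CAB44-L, CAB225-L, GAB235-S and CB6-L had 8668 to 30170 CPM of Ttn, the sarcomere protein titin, while all the other libraries were under the 1000 CPM set as the boundary. In these mixed tissues, fewer cells of a type and less RNA per cell cannot be told apart.

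Of the 30 imprinted genes that passed the filter on low counts in Cyp1a2_CA against WT, 21 rose, 2 fell and 7 did not pass the test (edgeR quasi-likelihood, Benjamini-Hochberg adjusted p under 0.05). Over all 16841 genes tested in that comparison, 38.3% rose and 32.7% fell, 70.9% together. In Gls2_CA against WT, 28 passed the filter, of which 21 rose, 3 fell and 4 did not pass the test, where 39.2% of 14976 genes rose and 34.0% fell, 73.2% together. The median log2 fold change of the imprinted genes tested was 2.06 in Cyp1a2_CA and 2.01 in Gls2_CA, beside 0.17 and 0.14 over all genes tested. Both comparisons use the same 6 WT libraries. In 13 of the 30 genes every Cyp1a2_CA animal lay above every WT animal and in 1 every animal lay below, which over all genes tested held for 23.4% and 20.8%. In Gls2_CA the counts were 16 and 2 of 28, beside 29.9% and 26.0% of all genes tested. A gene that passed the filter only through the group where it is high had to differ, so these counts describe the genes tested and not all 35. Ascl2, Usp29, Zim1, Magel2 and Mkrn3 were too low for the filter in every comparison, and Dlk1 and Ndn were too low in Gls2_CA against WT.

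**Figure D1:**
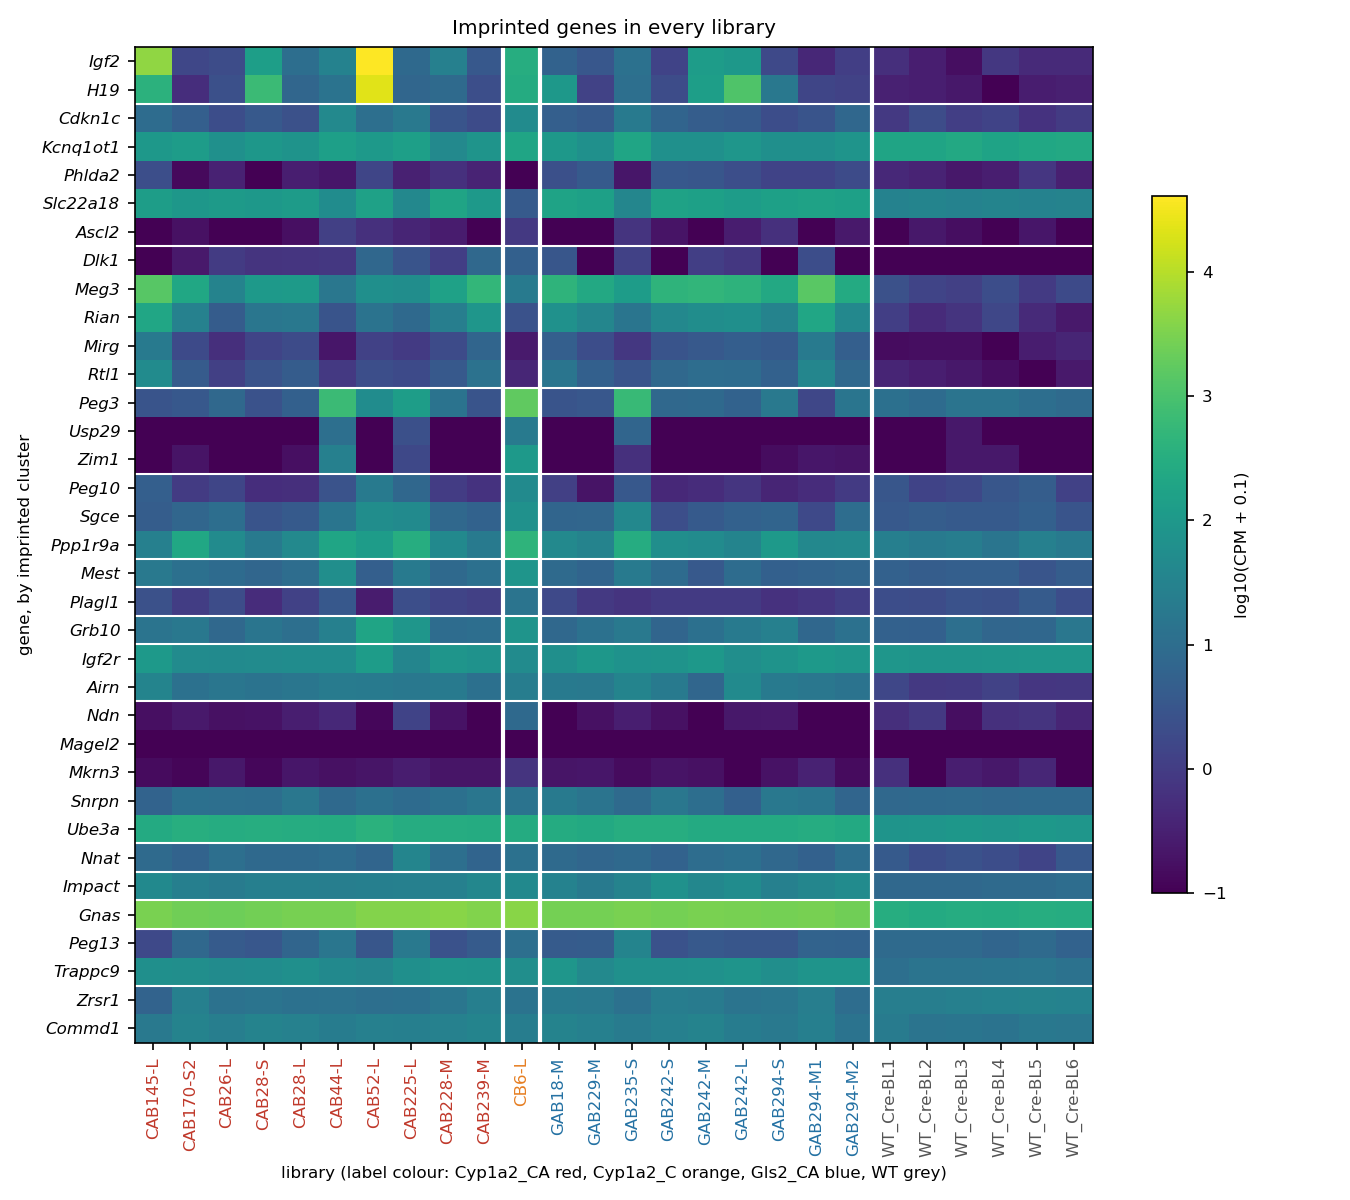
Level of each imprinted gene in each of the 26 libraries, as the base 10 logarithm of CPM plus 0.1, with genes grouped by cluster (thin lines) and libraries by group (thick lines). Igf2 and H19 are brightest in CAB52-L, Meg3 is brighter in all 20 tumours than in WT, and Gnas is high in every tumour.

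The Igf2/H19 cluster lies on chromosome 7. Igf2 encodes insulin-like growth factor 2, a fetal growth factor read from the paternal copy, and H19 is a noncoding RNA read from the maternal copy. In the GENCODE annotation of mm10 both are on the minus strand, Igf2 at chr7:142650766-142666816 and H19 at chr7:142575529-142578143. Igf2 was 1.43, 18.8 and 40238 CPM in the lowest, median and highest of the 10 Cyp1a2_CA libraries. In the 9 Gls2_CA libraries it was 0.328, 3.24 and 127, and in WT 0.0651, 0.361 and 0.706. H19 was 0.45, 7.92 and 22392 CPM in Cyp1a2_CA, 1.19, 10.8 and 1128 in Gls2_CA, and 0, 0.188 and 0.228 in WT. H19 was above the highest WT library in 20 of 20 tumours and Igf2 in 19 of 20, the exception being GAB294-M1 with 0.328 CPM. CB6-L held 303 CPM of Igf2 and 275 of H19.

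One tumour carries the Cyp1a2_CA mean of both genes. CAB52-L had 40238 CPM of Igf2 and 22392 of H19, and Igf2 took 3.40% of its counts (Wilson 95% interval 3.39% to 3.40%, counting error only). By counts, Igf2 ranked 2 and H19, with 1.89% of counts, ranked 5 among its genes. CAB52 held 89.4% of the summed Igf2 level of the 9 Cyp1a2_CA animals and 96.8% of H19. CAB145-L was next for Igf2 with 4716 CPM and had 406 of H19, and CAB28-S had 137 and 646. Without CAB52 the Cyp1a2_CA mean of Igf2 went from 5129 ± 13646 CPM (SD, n = 9) to 611 ± 1669 (n = 8), and that of H19 from 2636 ± 7628 to 93.9 ± 166. Among the 9 libraries left, the median was 10.5 CPM for Igf2 and 7.05 for H19, so most Cyp1a2_CA tumours were far below the group mean.

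In Gls2_CA the animal GAB242 has the same place. Its 3 libraries had 1.26, 127 and 97.8 CPM of Igf2 (S, M and L) and 1.87, 141 and 1128 of H19. The M and L libraries were the 2 highest of the group for both genes, while S was below its median. GAB242 held 77.2% of the summed Igf2 level of the 5 animals and 78.0% of H19. Without it the mean of Igf2 went from 19.8 ± 32.0 CPM (n = 5) to 5.65 ± 4.92 (n = 4) and that of H19 from 110 ± 183 to 30.2 ± 48.2. GAB18-M then had the highest H19, 99.7 CPM, with 5.70 of Igf2.

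Against WT, the log2 fold change of Igf2 was 13.71 ± 3.33 (SE, adjusted p = 0.00175) for Cyp1a2_CA and 5.68 ± 1.09 (adjusted p = 0.000547) for Gls2_CA. For H19 it was 13.91 ± 3.38 (adjusted p = 0.00175) and 9.29 ± 1.60 (adjusted p = 0.000252). Over the WT libraries Igf2 and H19 had 34 and 15 counts. H19 in both comparisons, and Igf2 in Gls2_CA, therefore passed the filter on low counts only through the tumours. Those values had to come out higher, so their p-values describe the size and spread and are no separate support for a rise. Every animal of both tumour groups was above every WT animal for both genes. Without CAB52 the Cyp1a2_CA values were 10.65 ± 2.55 for Igf2 (edgeR adjusted p = 0.00173) and 9.09 ± 1.97 for H19 (0.000807). That Igf2 value rests largely on CAB145, which had 4741 CPM beside 1.45 to 70.4 in the other animals left. Without GAB242 the Gls2_CA values were 3.92 ± 0.70 (edgeR adjusted p = 0.000479) and 7.43 ± 1.19 (0.000228), under the same limit of the filter. With all groups in 1 fit, the Gls2_CA value of Igf2 was 5.67 (edgeR adjusted p = 0.0504). In Cyp1a2_CA neither gene passed under limma-voom with sample weights, where Igf2 was 5.93 (adjusted p = 0.0640) and H19 was 6.97 (adjusted p = 0.103).

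**Figure D2:**
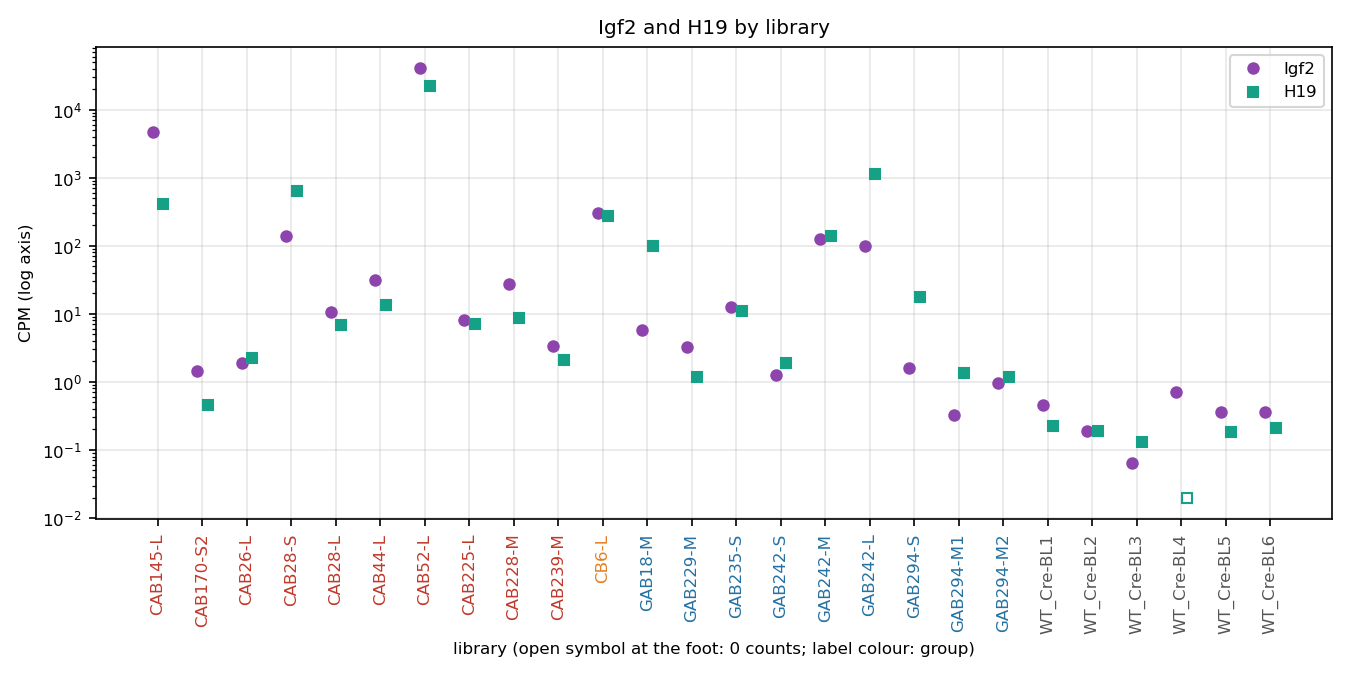
CPM of Igf2 (circles) and H19 (squares) in each library on a log axis, with library names coloured by group. CAB52-L is highest for both genes, CAB145-L second for Igf2 and GAB242-L second for H19, and the WT libraries are all under 1 CPM.

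Igf2 and H19 varied together between tumours, but in unequal amounts. Over the 14 Cyp1a2_CA and Gls2_CA animals their log2 CPM correlated with Pearson r = 0.88 and Spearman rho = 0.89 (permutation p = 4e-05 for each, 0.00015 after adjustment over 15 pairs). Without CAB52 and CAB145, the 2 animals farthest from the median of Igf2, r was 0.77, and within the 9 Cyp1a2_CA animals it was 0.95. Per kilobase of exon, the H19 level was 0.200 to 40.7 times that of Igf2 (median 2.07), and H19 was the higher of the pair in 16 of 20 tumours. The lowest ratio was in CAB145-L and the highest in GAB18-M, with 4716 and 5.70 CPM of Igf2 respectively. Among 9934 genes with a mean of at least 5 CPM over the 20 tumours, H19 was the gene most like Igf2 in rank order (Spearman rho = 0.86), followed by Bub1b, Pprc1, Rpl35 and Cfl1 at 0.85 to 0.83. These correlations over libraries are descriptions, since libraries of 1 animal and the 4 Ttn-high libraries are among the points.

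H19 is the host of a microRNA. The row for its precursor, Mir675, held 1400 counts over the 20 tumours and 0 over the 6 WT libraries, with 1238 of the tumour counts in CAB52-L. The mature sequences from RefSeq (GRCm38.p6), 5′ to 3′ with the seed (bases 2 to 8) in capitals, show what that precursor can yield.
miR-675-5p: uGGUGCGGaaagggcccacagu
miR-675-3p: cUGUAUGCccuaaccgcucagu
The labels' protocols name total RNA and no selection of small RNA, and reads of the mature microRNA, its precursor and the host cannot be told apart in these counts.

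RefSeq lists 4 start sites of Igf2 in the promoter table, and gene-level counts do not say which was used. The 250 bases before the third, at chr7:142658805-142659054 on the minus strand of GRCm38.p6, are shown because they are the most CpG-rich of the 4 windows. The capitals mark the letters GCCCCCT, the reverse complement of AGGGGGC, a piece of the CTCF motif that 10.6% of all 32851 promoter windows of 300 bases hold on either strand.
Igf2 start 3: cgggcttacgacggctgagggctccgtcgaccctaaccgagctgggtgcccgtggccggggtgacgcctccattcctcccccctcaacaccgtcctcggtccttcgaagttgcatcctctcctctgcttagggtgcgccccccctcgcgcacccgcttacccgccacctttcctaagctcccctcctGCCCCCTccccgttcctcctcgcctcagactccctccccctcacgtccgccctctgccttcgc
A match of these letters is a description of the sequence and not a binding site. The 300-base window of that start holds 24 CpG dinucleotides, beside a median of 7 over all windows.

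In the Dlk1/Meg3 domain on chromosome 12, Meg3, Rian and Rtl1 were above the highest WT library in 20 of 20 tumours and Mirg in 18. Dlk1, a membrane-bound Notch-like protein, and Rtl1, a retrotransposon-derived protein, are read from the paternal copy. Meg3, Rian and Mirg are noncoding RNAs of the maternal copy that host snoRNAs and a large array of microRNAs. Meg3 lies at chr12:109541001-109571726 on the plus strand. All 5 genes rose in Cyp1a2_CA and all 4 tested rose in Gls2_CA, beside 38.3% and 39.2% of all genes tested. Over the WT libraries Dlk1, Mirg and Rtl1 had 0, 10 and 13 counts, so where tested they passed the filter only through the tumours. Such genes had to come out higher, so this tally is no result about the domain.

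Meg3 was 16.4, 112 and 1375 CPM in the lowest, median and highest Cyp1a2_CA library, 126, 413 and 1446 in Gls2_CA, 19.8 in CB6-L, and 0.795, 1.49 and 2.34 in WT. The lowest tumour, CAB44-L, was thus above the highest WT library, and the highest, GAB294-M1 and CAB145-L, were in different groups. The log2 fold change was 7.48 ± 1.13 (adjusted p = 2.41e-05) for Cyp1a2_CA and 7.84 ± 0.47 (adjusted p = 6.65e-08) for Gls2_CA. Rian was 6.00 ± 1.11 and 6.21 ± 0.57, Rtl1 5.92 ± 1.19 and 6.00 ± 0.62, and Mirg 5.04 ± 1.19 and 5.11 ± 0.75, all past the threshold (edgeR adjusted p from 1.48e-06 to 0.00142). Without CAB145, whose tumour was the highest of Cyp1a2_CA, the 4 values of that group were 6.53 for Meg3, 5.09 for Rian, 4.66 for Rtl1 and 3.94 for Mirg, and all passed (edgeR adjusted p from 5.89e-06 to 0.00112). With the offset for exon length and GC content, Meg3 was 6.06 and 6.30 and Rian 4.77 and 4.88, past the threshold in both comparisons. In WT Rian, Rtl1 and Mirg had at most 1.48, 0.285 and 0.284 CPM. The exon model of Rtl1 lies on the opposite strand to the maternal transcripts, and with the strand setting of the counting not given, antisense reads counted as Rtl1 cannot be told apart from its own.

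The maternal RNAs kept a narrow ratio while their level moved. Per kilobase of exon, Meg3 was 4.55 to 10.7 times Rian (median 6.73), over tumours in which Meg3 itself spanned 88.2-fold. Over the 14 animals, log2 CPM of Meg3 and Rian correlated with r = 0.99 and rho = 0.99, Meg3 and Mirg with 0.97 and 0.96, and Rian and Mirg with 0.98 and 0.98. The permutation p was 1e-05, the smallest that 100000 resamples can give, for each of the 3 (5e-05 adjusted over 15 pairs). Leaving out CAB44 and CAB145 gave r = 0.98, 0.93 and 0.96. The genes most like Meg3 over the 20 tumours were Rian and Rtl1 (rho = 0.98 each) and the snoRNA gene AF357359 (0.97), followed by Psmd1 (0.89) and Hsp90ab1 (0.88).

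Dlk1 had another order over the tumours than Meg3. It was 0, 0.781 and 7.89 CPM in Cyp1a2_CA, 0, 0.724 and 3.07 in Gls2_CA, 5.16 in CB6-L and 0 in all 6 WT libraries. With 3 counts in the WT libraries together as the floor (0.0319 CPM), the mean was at least 74.9-fold higher in Cyp1a2_CA and at least 34.2-fold higher in Gls2_CA. Its fitted log2 fold change in Cyp1a2_CA passed the test (adjusted p = 0.00358), though its size depends on the prior count because WT had no reads. CAB145-L, with the second highest Meg3 of all, was 1 of 5 tumours with no Dlk1 count, and the other 4 were GAB229-M, GAB242-S, GAB294-S and GAB294-M2. Over the 14 animals r between Dlk1 and Meg3 was -0.30 (rho = -0.31, permutation p = 0.299 and 0.276, adjusted 0.448 and 0.414), and 0.03 without CAB145 and GAB229. Igf2 and Dlk1 (r = 0.05, permutation p = 0.876) and H19 and Meg3 (r = 0.06, permutation p = 0.852) also gave no relation past the threshold (adjusted 0.876 each).

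**Figure D3:**
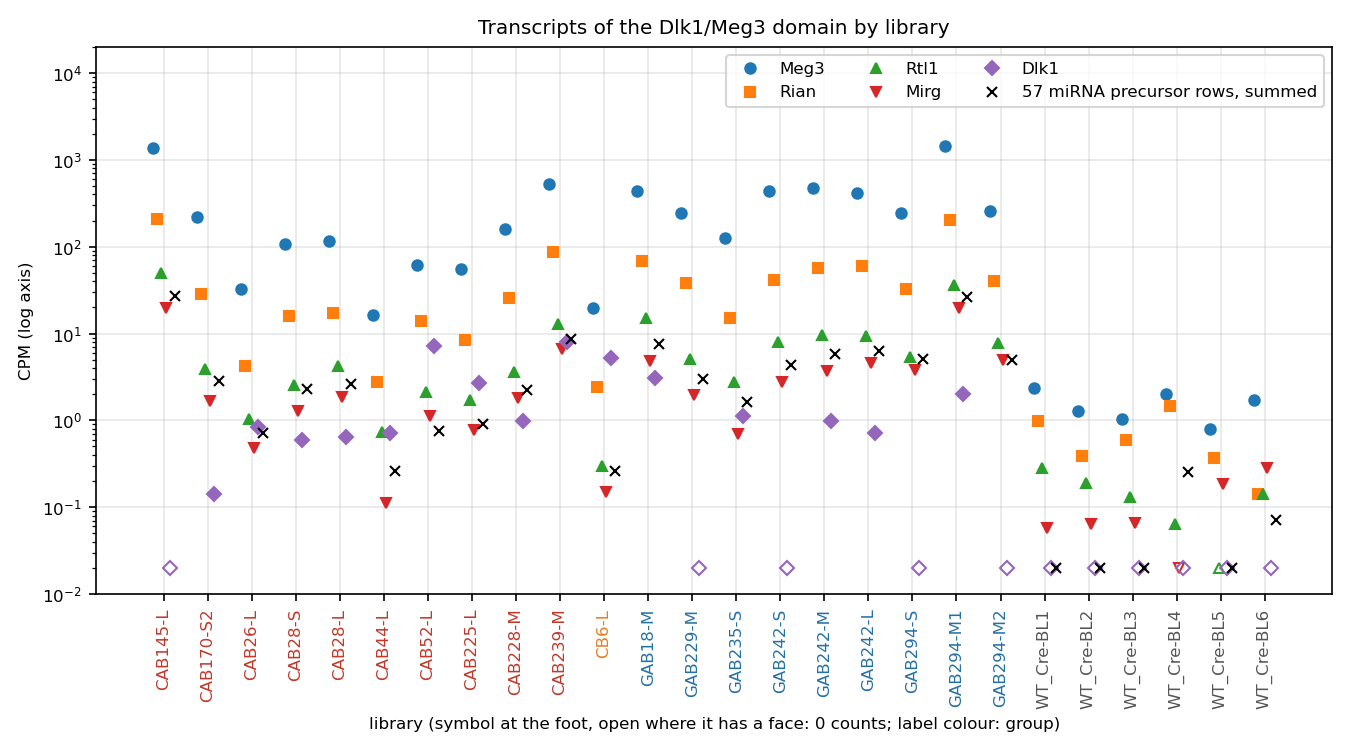
CPM of 5 genes of the domain and of its 57 microRNA precursor rows summed, in each library on a log axis; symbols at the foot are libraries with 0 counts. Meg3, Rian, Rtl1, Mirg and the precursor rows move in parallel across the 20 tumours, while Dlk1 is at 0 in 5 of them and in all 6 WT libraries.

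The rows of the microRNA precursors of the domain held counts in the tumours as well. RefSeq gives hairpins of 57 microRNA genes there, and 50 of their 57 rows in the table had at least 1 count in a tumour. The 57 rows summed to 4354 counts over the 20 tumours and to 5 counts, in 4 rows, over the 91746950 counts of WT. Each tumour library had 36992043 to 49254470 counts in all. No single row passed the filter on low counts, so none was tested. The sum was 0.262 CPM in CB6-L, 0.264 in CAB44-L and 26.8 in CAB145-L, the lowest and highest libraries, and 26.2 in GAB294-M1. The sum was high where Meg3 was high. Some hairpins lie inside Meg3, Rian or Mirg, and reads of a precursor and of a host transcript cannot be told apart.

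Mature microRNAs are listed for 60 genes of the domain, the 57 above and 3 with no hairpin entry (Mir544, Mir666 and Mir1906-1), whose rows are not in those sums. They give 112 entries with 102 distinct seeds, and 10 seeds occur in a pair of entries. The sequences below, from RefSeq (GRCm38.p6), 5′ to 3′ with the seed in capitals, show 3 pairs from different hairpins that share a seed, and miR-127-3p, whose hairpin lies opposite Rtl1.
miR-379-5p: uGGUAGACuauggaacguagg
miR-1193-5p: uGGUAGACcggugacguaca
miR-379-3p: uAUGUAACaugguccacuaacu
miR-411-3p: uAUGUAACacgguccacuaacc
miR-494-5p: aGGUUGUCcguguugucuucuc
miR-410-5p: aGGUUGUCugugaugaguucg
miR-127-3p: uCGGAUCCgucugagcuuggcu
The precursor rows of Mir379 and Mir410, the latter inside Mirg, held 94 and 8 tumour counts, and that of Mir127 held 0 in all 26 libraries.

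The promoter window of Meg3 at chr12:109540746-109541045 (plus strand, GRCm38.p6, 250 bases before the start and 50 after) is shown because Meg3 starts the array whose members moved together. It holds 13 CpG dinucleotides. The capitals mark GCGGCA, the reverse complement of TGCCGC, the hexamer bound by ZFP57 when methylated, and TTTATATAAA, in which TATAAA reads on both strands in overlapping copies.
Meg3 start 1: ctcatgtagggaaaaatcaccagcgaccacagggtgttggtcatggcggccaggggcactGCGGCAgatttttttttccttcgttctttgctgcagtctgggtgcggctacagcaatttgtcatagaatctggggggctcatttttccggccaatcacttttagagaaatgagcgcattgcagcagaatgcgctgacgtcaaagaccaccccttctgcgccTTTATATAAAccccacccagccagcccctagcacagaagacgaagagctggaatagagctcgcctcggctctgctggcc
Among all 32851 windows, 11.6% hold TGCCGC and 13.6% hold TATAAA on either strand. The window holds no CTTTGAT, a TCF/LEF motif that 3.73% of windows hold.

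The Kcnq1ot1 cluster is the neighbour of Igf2/H19 on chromosome 7. Its maternal genes Cdkn1c, an inhibitor of cyclin-dependent kinases, Slc22a18, a transporter, and Phlda2, a growth restrainer of placenta, are silenced on the paternal copy by the long noncoding RNA Kcnq1ot1. Kcnq1ot1 fell in both comparisons, Cdkn1c and Slc22a18 rose in both, and Phlda2 rose in Gls2_CA. Kcnq1ot1 was 43.8, 94.0 and 145 CPM in Cyp1a2_CA, 60.4, 66.5 and 196 in Gls2_CA, 199.7 in CB6-L, and 181, 204 and 245 in WT, a log2 fold change of -1.15 ± 0.22 (adjusted p = 0.000251) and -1.12 ± 0.30 (adjusted p = 0.00497). In Cyp1a2_CA every animal was below WT, and in Gls2_CA GAB235 overlapped it. Its exon model spans 93092 bases and overlaps Kcnq1, and its values under the offset for exon length and GC were -2.37 and -2.24.

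Cdkn1c was 1.84, 4.19 and 44.4 CPM in Cyp1a2_CA, 1.99, 4.48 and 20.003 in Gls2_CA and 0.550, 0.915 and 1.86 in WT, with log2 fold changes of 3.34 ± 0.77 (adjusted p = 0.00122) and 2.82 ± 0.52 (0.000433). Without the Ttn-high libraries they were 2.19 and 2.01. Against WT Cdkn1c and Kcnq1ot1 differed in opposite directions, but between tumours the relation had a positive sign. CAB44, CAB225 and GAB235 were high for both and stand apart, so no correlation over all 14 animals is given. Within the other 11 animals r was 0.54 and rho 0.59 (permutation p = 0.0828 and 0.0605, unadjusted), and r was 0.55 without CAB52 and CAB239. Slc22a18 was 41.3, 111 and 185 CPM, 36.9, 154 and 182, and 29.7, 31.3 and 33.4, with 1.74 ± 0.27 (adjusted p = 3.1e-05) and 2.02 ± 0.30 (7.03e-05), while CB6-L had 3.83 CPM, below all WT libraries. Phlda2 stayed low everywhere, at most 3.69 CPM, and rose in Gls2_CA (2.68 ± 0.67, adjusted p = 0.00341). In Cyp1a2_CA its log2 fold change of 0.78 ± 0.79 did not pass (adjusted p = 0.386). Ascl2, a transcription factor of placenta and stem cells, never exceeded 1.06 CPM.

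The Peg3 cluster followed the Ttn-high libraries. Peg3 is a zinc finger protein read from the paternal copy, and Usp29 and Zim1 are its neighbours. Peg3 was 647 CPM in CAB44-L, 131 in CAB225-L, 597 in GAB235-S and 1752 in CB6-L. In the other 16 tumours it was 1.46 to 53.5 with a median of 5.50, and in WT 8.68 to 14.4. Most tumours were therefore below WT: 12 of 20 were under its lowest library and 7 above its highest. The fitted log2 fold changes, 3.03 ± 1.28 for Cyp1a2_CA (adjusted p = 0.0438) and 3.45 ± 1.32 for Gls2_CA (adjusted p = 0.0326), rested on those libraries. Without libraries above 1000 CPM of Ttn, the edgeR value was 0.07 ± 0.66 in Cyp1a2_CA (adjusted p = 0.929) and -0.96 ± 0.37 in Gls2_CA (0.0327), where GAB235 was the only library removed. Leaving out CAB44 alone gave 1.21 in Cyp1a2_CA (edgeR adjusted p = 0.227), and leaving out any single WT animal also ended both calls (edgeR adjusted p from 0.0558 to 0.0773), as did the length and GC offset (1.65 and 1.91, edgeR adjusted p = 0.203 and 0.163).

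Usp29 had counts in only 4 tumours, with 2.19 to 20.6 CPM in the Ttn-high libraries and 0 in the other 16, and Zim1 was 0.507 to 107 CPM in those 4 and at most 0.119 in the other 16. Some genes of other clusters were split the same way. Cdkn1c was 18.6 to 51.5 CPM in the 4 libraries and at most 10.9 in the others, Kcnq1ot1 142 to 199.7 against at most 126, Mest 20.2 to 84.6 against at most 18.2, and Peg13 11.1 to 34.4 against at most 7.75. Slc22a18 was 3.83 to 53.8 CPM and at least 90.9 in the others. For Igf2, H19 and Meg3, as for most of the imprinted genes, the 4 libraries lay within the range of the rest or overlapped it. The 10 muscle markers, Ttn among them, summed to 278 to 21563 CPM in Cyp1a2_CA, 588 to 30765 in Gls2_CA, 8932 in CB6-L and 110 to 152 in WT. The high sums are almost all Ttn, the gene that set the 4 libraries apart. Ttn was 20952 of the 21563 CPM in CAB44-L, 30170 of 30765 in GAB235-S and 8668 of 8932 in CB6-L. With little Ttn, CAB28-L and GAB18-M summed to 1371 and 1561 CPM, of which Ttn was 3.55 and 3.37. At 0 in every library of a group were 1 of the 10 in Cyp1a2_CA and in CB6-L (Ckm), 2 in Gls2_CA (Myh4 and Myod1) and 5 in WT (Acta1, Ckm, Tnnt3, Myh1 and Myod1). The 11 stellate cell and fibroblast markers summed to 1489 CPM in CB6-L, 155 to 846 in Cyp1a2_CA, 101 to 340 in Gls2_CA and 414 to 503 in WT. The medians were 276 in Cyp1a2_CA and 176 in Gls2_CA, below the 433 of WT. The part of such cells in these values was not tested. The split was read from the data, so no mean or test is given for it. The share of all genes split in this way was not computed, so the split is no result about imprinted genes.

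**Figure D4:**
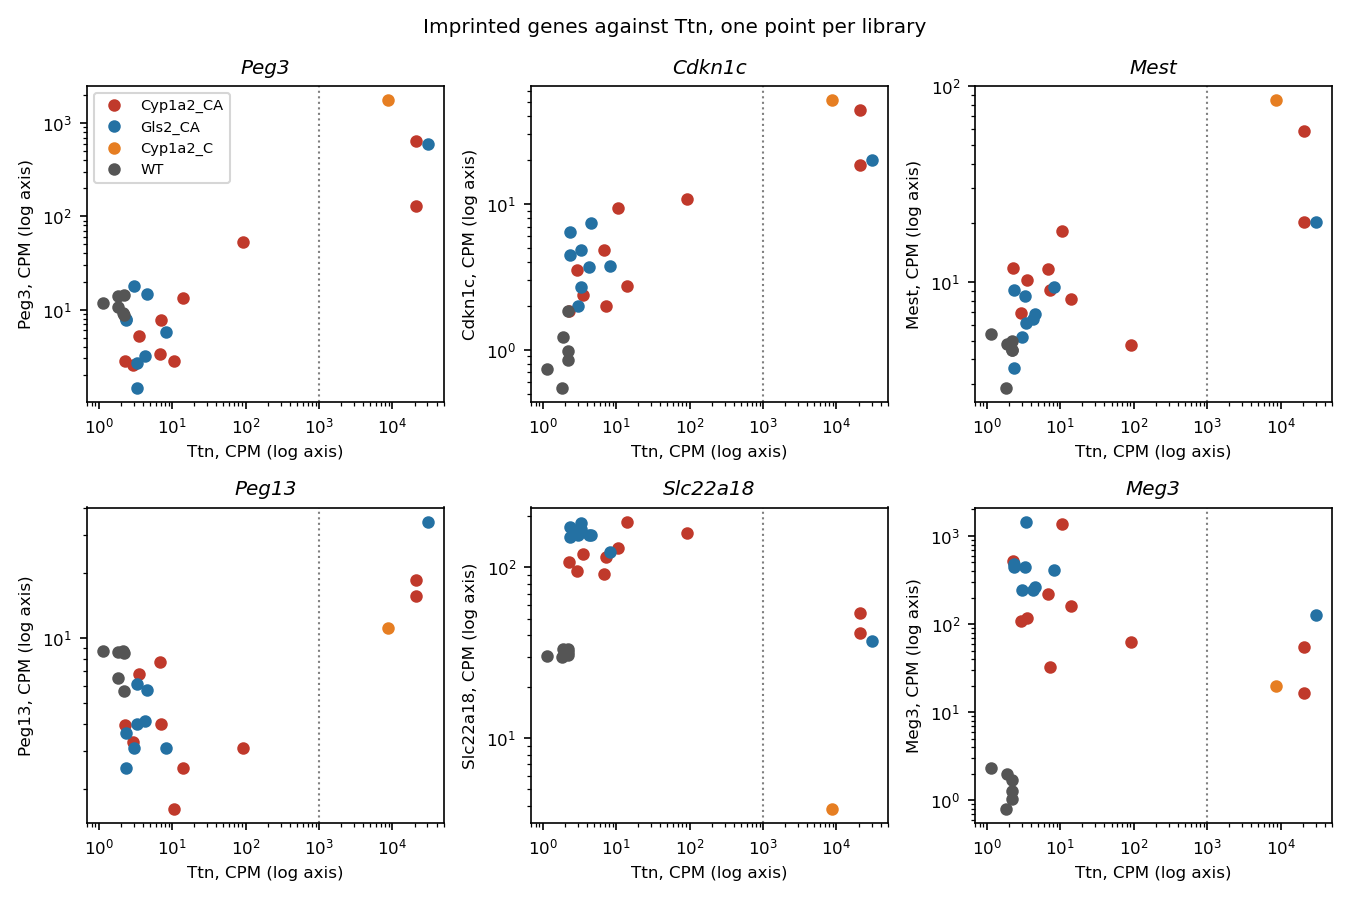
CPM of 6 imprinted genes against CPM of Ttn, 1 point per library, both axes logarithmic, coloured by group; the dotted line marks 1000 CPM of Ttn. Peg3, Cdkn1c, Mest and Peg13 are high and Slc22a18 is low to the right of the line, while Meg3 is above WT on both sides of it.

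On chromosome 6, Peg10, a retrotransposon-derived gene, did not pass in either comparison (0.79 ± 0.79 and -1.15 ± 0.73, adjusted p = 0.381 and 0.169). It was 19.5 CPM in CAB52-L and 47.9 in CB6-L, with medians of 1.13 in Cyp1a2_CA, 0.417 in Gls2_CA and 2.29 in WT, and 13 of 20 tumours were under the lowest WT library. Without GAB235 it fell in Gls2_CA (-2.26, edgeR adjusted p = 0.0025), and without CAB52 it was -0.05 in Cyp1a2_CA (edgeR adjusted p = 0.943). Its head-to-head neighbour Sgce, which encodes epsilon-sarcoglycan, rose by 2.09 ± 0.64 (adjusted p = 0.00853) and 1.71 ± 0.58 (0.0185) and was highest in CB6-L and CAB52-L (68.5 and 55.8 CPM). Its Gls2_CA value was 0.50 without GAB235 (edgeR adjusted p = 0.0414) and 0.96 with the length and GC offset (edgeR adjusted p = 0.110), and limma-voom gave 0.74 in Cyp1a2_CA (adjusted p = 0.0979). Over 14 animals Peg10 and Sgce correlated with r = 0.74 (permutation p = 0.00254, adjusted 0.00544) and rho = 0.67 (p = 0.0101, adjusted 0.0189). Without CAB52 and CAB225 r was 0.46, so that relation rests on those animals. Ppp1r9a, neurabin 1, rose by 2.32 ± 0.60 and 2.13 ± 0.56 (edgeR adjusted p = 0.00288 and 0.00443), from a WT range of 15.1 to 27.2 CPM to medians of 48.1 and 44.1. With the length and GC offset neither value passed (1.00 and 0.67, edgeR adjusted p = 0.0919 and 0.190), and without GAB235 the Gls2_CA value was 1.00. Mest, a hydrolase read from the paternal copy, rose by 1.85 ± 0.49 (adjusted p = 0.00311) and 1.06 ± 0.33 (0.0131), or by 1.12 and 0.56 without the Ttn-high libraries (edgeR adjusted p = 0.00123 and 0.0128). With all groups in 1 fit the Gls2_CA value did not pass (1.04, edgeR adjusted p = 0.0812). Its exons overlap those of Copg2 on the other strand.

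Grb10, an adaptor that restrains insulin and IGF receptors, was 7.64, 14.7 and 184 CPM in Cyp1a2_CA, with CAB52-L highest, and rose by 2.20 ± 0.76 (adjusted p = 0.0168). The call was lost with the length and GC offset (1.49, edgeR adjusted p = 0.0743) and with limma-voom (0.78, adjusted p = 0.0914), and without CAB52 the value was 1.38. In Gls2_CA it was 6.56, 12.0 and 27.9 CPM, beside 5.25, 7.04 and 16.2 in WT, and did not pass (0.55 ± 0.32, adjusted p = 0.143). Plagl1, a zinc finger factor that regulates other imprinted genes, fell in Gls2_CA, with a log2 fold change of -1.502 ± 0.314 (adjusted p = 0.00101) and every animal below WT. In Cyp1a2_CA it was -0.71 ± 0.44 (adjusted p = 0.160), and -1.07 without the Ttn-high libraries (edgeR adjusted p = 0.0329).

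Igf2r and Airn overlap on chromosome 17 in opposite directions. Igf2r encodes the receptor that takes up and degrades IGF2, and Airn is the antisense RNA that silences its paternal copy. Airn was 11.5, 16.7 and 34.5 CPM in Cyp1a2_CA, 7.06, 19.3 and 47.4 in Gls2_CA and 0.673, 0.775 and 1.43 in WT. Every tumour was above every WT library, with log2 fold changes of 4.27 ± 0.29 (adjusted p = 3.26e-09) and 4.56 ± 0.28 (8.24e-08). Igf2r was 35.9, 53.0 and 127 CPM, 57.9, 74.0 and 103, and 78.9, 84.7 and 89.4, and did not pass (-0.34 ± 0.24, adjusted p = 0.207, and -0.18 ± 0.11, 0.168). With an offset for exon length and GC content it fell in both (-1.04 and -0.92, edgeR adjusted p = 0.00175 and 7.32e-05), and with upper-quartile scaling likewise (-0.57 and -0.40, 0.0348 and 0.00783). It also fell in Cyp1a2_CA without CAB52 (-0.50, edgeR adjusted p = 0.0321) and with limma-voom (-0.57, adjusted p = 0.000953), and in Gls2_CA with the tumours thinned to WT depth (-0.26, edgeR adjusted p = 0.0492). Over 14 animals Igf2r and Airn had r = 0.39 and rho = 0.43 (permutation p = 0.166 and 0.128, adjusted 0.277 and 0.213). The gene spans overlap, so unspliced Igf2r reads and Airn reads cannot be told apart without strand.

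Of the Snrpn/Ube3a cluster, Ube3a, a ubiquitin ligase imprinted in neurons and read from both copies in other tissues, varied least. It was 254 to 380 CPM in all 20 tumours and 80.6 to 97.6 in WT, with log2 fold changes of 1.73 ± 0.10 (adjusted p = 6.08e-10) and 1.61 ± 0.11 (1.84e-07). The exon model of Ube3a is 20626 bases with a GC share of 0.369, and with the offset for length and GC the differences were 0.22 and 0.01 and no longer passed (edgeR adjusted p = 0.167 and 0.964). Its exons also overlap those of the antisense RNA Snhg14. Snrpn, a splicing protein, rose in Gls2_CA (0.59 ± 0.17, adjusted p = 0.00832) and was 0.38 ± 0.18 in Cyp1a2_CA (0.0631). With the length and GC offset it passed in both (1.03 and 1.34), and with upper-quartile scaling the Gls2_CA call was lost (0.37, edgeR adjusted p = 0.0733). Its exons overlap those of Snurf on the same strand, and Snurf fell in both (-1.22 ± 0.17 and -1.01 ± 0.19, edgeR adjusted p = 1.1e-05 and 0.000507). Ndn, a growth-restraining protein of neurons, was at most 1.27 CPM outside CB6-L, where it was 7.95. Its Cyp1a2_CA value of -0.94 ± 0.82 did not pass (adjusted p = 0.311), but passed without CAB225 (-1.995, edgeR adjusted p = 0.0101) and with limma-voom (-1.79, adjusted p = 0.0371). Mkrn3 was at most 0.599 CPM, and Magel2 had 0 counts in all 26 libraries.

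Gnas, the stimulatory G protein subunit with several imprinted promoters, was 2345 to 4069 CPM in the tumours and 261 to 318 in WT (3.37 ± 0.16 and 3.18 ± 0.14, edgeR adjusted p = 1.15e-10 and 1.52e-08). Trappc9, a vesicle tethering subunit, was 37.8 to 86.8 CPM against 10.8 to 15.6 (2.02 ± 0.16 and 2.23 ± 0.17, edgeR adjusted p = 1.61e-08 and 3.58e-07). Impact, a regulator of translation on chromosome 18, was 19.9 to 67.5 CPM against 7.59 to 9.81 (1.76 ± 0.16 and 2.01 ± 0.21, edgeR adjusted p = 1.03e-07 and 3.99e-06). Tumours and WT did not overlap for Gnas, Trappc9 or Impact, and with the length and GC offset Gnas was 2.20 and 1.86 and Trappc9 1.30 and 1.42. Nnat, a small membrane protein, rose by 2.12 ± 0.43 and 1.61 ± 0.25 (edgeR adjusted p = 0.000375 and 9.87e-05), with CAB225-L highest at 36.3 CPM. The noncoding Peg13, within an intron of Trappc9, was -0.23 ± 0.47 and 0.35 ± 0.61 (edgeR adjusted p = 0.676 and 0.618). Without the Ttn-high libraries it fell in both, by 1.02 and 1.04 on the log2 scale (edgeR adjusted p = 0.00572 and 0.000213). The difference between Trappc9 and Peg13 was not tested, and over 14 animals they had r = -0.13 and rho = -0.28 (permutation p = 0.658 and 0.327, adjusted 0.876 and 0.446).

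Zrsr1, a paternally read splicing factor gene, lies within Commd1, a copper and trafficking protein. Zrsr1 fell (-0.96 ± 0.26, adjusted p = 0.00366, and -0.77 ± 0.14, 0.00032) and Commd1 rose (0.70 ± 0.14, adjusted p = 0.000375, and 0.59 ± 0.16, 0.00557). With upper-quartile scaling the Gls2_CA value of Commd1 was 0.36 (edgeR adjusted p = 0.0580). Although they differed from WT in opposite directions, over the tumours they moved together, with r = 0.70 and rho = 0.67 (permutation p = 0.00398 and 0.00997, adjusted 0.00746 and 0.0189) and r = 0.71 without CAB145 and GAB294. Their exon models overlap on opposite strands, and reads of that overlap cannot be assigned without strand.

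**Figure D5:**
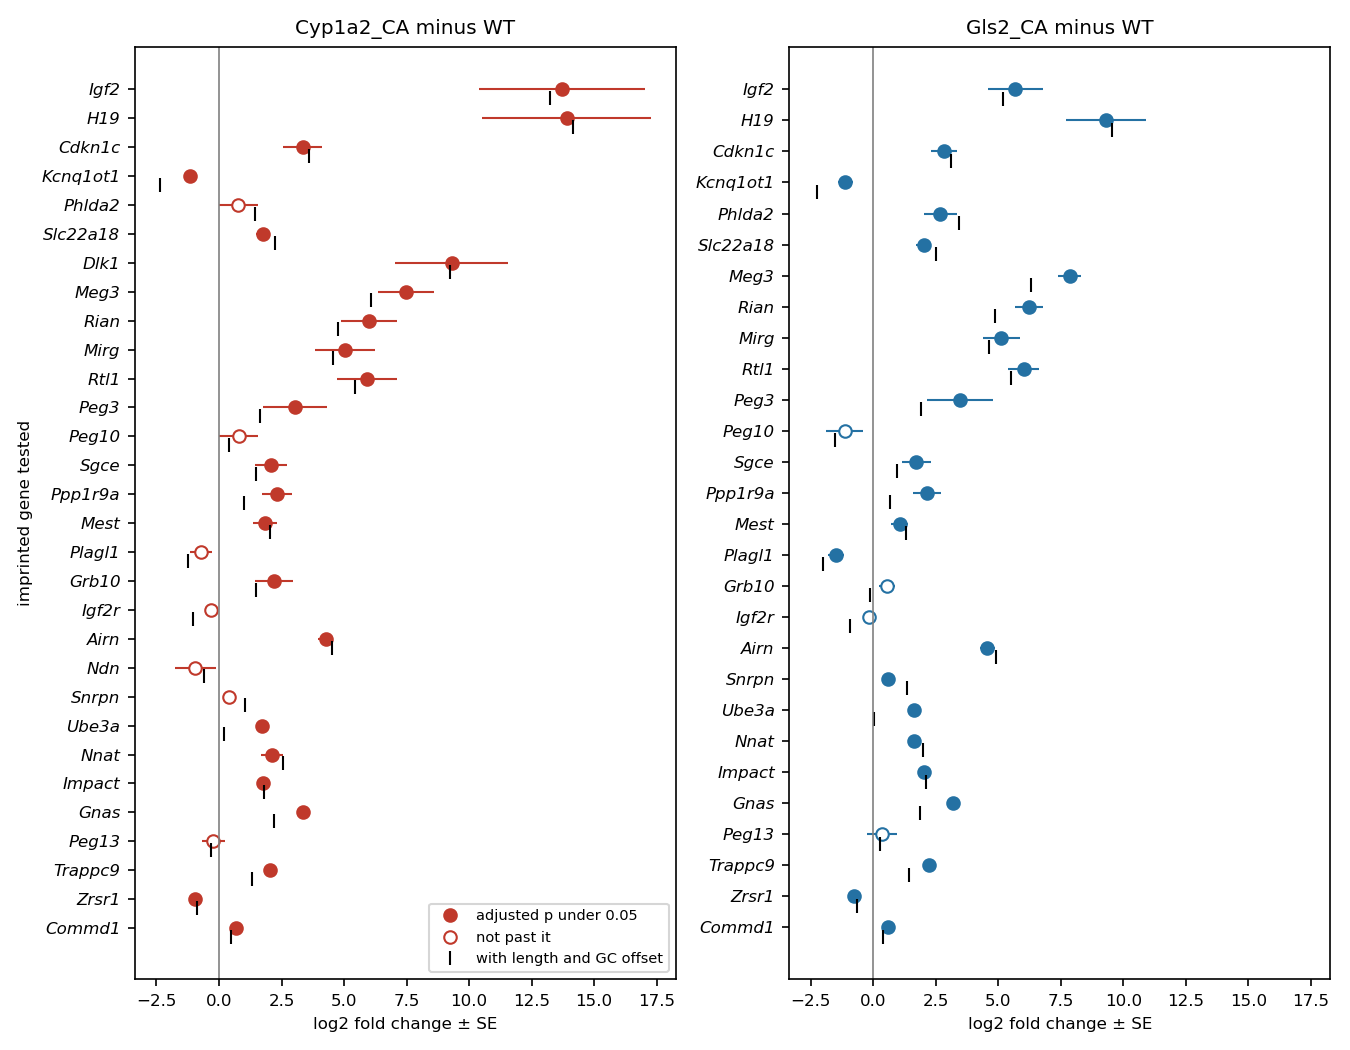
Log2 fold change ± SE of each imprinted gene tested, Cyp1a2_CA (left) and Gls2_CA (right) against the same 6 WT animals; filled points passed the adjusted p of 0.05 and black ticks give the value with an offset for exon length and GC content. Igf2 and H19 have the widest errors on the left, H19 and Peg3 on the right, and the ticks of Ube3a lie near 0.

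Between the 2 tumour groups no imprinted gene passed. Of 17129 genes tested, 29 of them imprinted, 0 passed in edgeR (0%), with 554 genes and 2 imprinted genes at an unadjusted p under 0.05 (0.0233 and 0.0389). DESeq2 called 20 genes and limma-voom 10 in the same comparison, none of them one of the 35, though DESeq2 gave no adjusted p for Igf2, H19 and Peg3. The pair at an unadjusted p under 0.05 was Igf2, with a log2 difference of 8.03 ± 3.16, Cyp1a2_CA minus Gls2_CA, and Phlda2, with -1.91 ± 0.84, each with an adjusted p of 1.00. No imprinted gene separated the groups without overlap, as 0.0409% and 0.0467% of all genes tested did in either direction. For H19 the difference was 4.61 ± 2.72, and without CAB52 it was -0.22. For Meg3 it was -0.37 ± 0.87, and for Gnas 0.19 ± 0.16. The median over the 29 was -0.02.

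Many of the imprinted genes varied widely between tumours. Of the 31 with a mean of at least 1 CPM, 12 had an SD of log2 CPM over the 19 Cyp1a2_CA and Gls2_CA libraries above 1.53, the 90th percentile of 14407 genes at that level. Their median SD was 1.22, beside 0.50 over those genes. Igf2 and H19 had the highest, 4.25 and 4.13, then Peg3 with 2.57, and Gnas and Ube3a the lowest of the 31, 0.21 and 0.14. Tumours of 1 animal number also differed: between the libraries of CAB28, 2 genes differed by over 4-fold (Igf2 and H19), in GAB242 there were 3 (with Airn) and in GAB294 there were 8, the Meg3 array, Peg3 and Sgce besides the Igf2 pair. The share of all genes that differ by over 4-fold between the same libraries was not computed, so these counts are no result about imprinted genes. Igf2 in GAB294 rests on 57, 11 and 41 counts (S, M1 and M2). GAB294-M1 had 1446 CPM of Meg3, while GAB294-S had 246 and GAB294-M2 had 261.

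Genes that act on these clusters were read from lists. Of 18 genes of the IGF axis, 15 were tested in Cyp1a2_CA, where 3 rose and 4 fell, and 14 in Gls2_CA, where 4 rose and 6 fell. Over all genes tested 38.3% rose and 32.7% fell in Cyp1a2_CA, and 39.2% and 34.0% in Gls2_CA, so these counts are no result about the list. Igf1r, the signalling receptor of IGF2, rose by 1.24 ± 0.19 and 2.58 ± 0.69 (edgeR adjusted p = 2.15e-05 and 0.00511). GAB229 held 74.6% of its summed Gls2_CA level, and without that animal the Gls2_CA value was 0.94 (edgeR adjusted p = 0.000120). With the length and GC offset neither value of Igf1r passed, and the Cyp1a2_CA one turned (-0.25 and 1.13, edgeR adjusted p = 0.143 and 0.166). The binding proteins Igfbp2 (-2.55 and -2.42) and Igfbp4 (-2.23 and -2.12) and the acid-labile subunit Igfals (-2.34 and -2.25) fell in both, and Igfbp2 was -3.58 in Cyp1a2_CA without CAB52. Of 15 genes that set or keep imprints, 13 were tested, and 10 rose in each comparison, with 2 and 1 falling, beside the 38.3% and 39.2% that rose over all genes tested. The maintenance methyltransferase Dnmt1 rose by 1.80 ± 0.19 and 1.85 ± 0.23, the demethylase Tet2 by 1.60 ± 0.17 and 1.59 ± 0.14 and the insulator protein Ctcf by 1.59 ± 0.12 and 1.38 ± 0.19, all past the threshold. With the length and GC offset Tet2 was 0.20 and 0.13 and no longer passed (edgeR adjusted p = 0.369 and 0.500), and Dnmt1 was 1.15 and 1.12. Trim28, the corepressor that ZFP57 recruits, fell by 1.25 ± 0.13 and 1.44 ± 0.16 on the log2 scale.

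A list of 9 regulators or companions of H19 in fetal liver gave 7 tested genes in Cyp1a2_CA and 6 in Gls2_CA. In Cyp1a2_CA 3 rose and 1 fell, and in Gls2_CA 1 rose and 2 fell. Beside 38.3% and 32.7%, and 39.2% and 34.0%, over all genes tested, these few genes are no result about the list. Zbtb20, a postnatal repressor of Afp, rose from 839 to 1047 CPM in WT to 11356 to 23272 in the Cyp1a2_CA and Gls2_CA libraries (4.09 ± 0.21 and 4.01 ± 0.20, edgeR adjusted p = 1.64e-10 and 2.27e-08), or 2.17 and 2.02 with the length and GC offset. Gpc3, a fetal proteoglycan, rose in Cyp1a2_CA (5.71 ± 1.85, adjusted p = 0.0120) and was 1.58 ± 0.78 in Gls2_CA (0.0851), and the difference between the groups did not pass (4.12 ± 1.97, adjusted p = 1.00). CAB52 held 95.5% of the summed Cyp1a2_CA level of Gpc3, and without it the mean went from 42.9 ± 122 CPM (SD, n = 9) to 2.17 ± 2.01 (n = 8) and the log2 fold change to 1.41 (edgeR adjusted p = 0.0475). With limma-voom the Cyp1a2_CA call was lost (1.71, adjusted p = 0.0764). GAB242 held 68.4% in Gls2_CA, where Gpc3 was 0.25 without that animal (edgeR adjusted p = 0.703) and passed without GAB229 (1.86, 0.0350) or GAB235 (1.84, 0.0454). Zfp36l1, an RNA-binding protein, fell in both (-0.57 and -0.74), though not with the length and GC offset (-0.21 and -0.32, edgeR adjusted p = 0.266 and 0.153). Plag1, a zinc finger factor, fell in Gls2_CA (-1.52), but not with all groups in 1 fit (-1.52, edgeR adjusted p = 0.117). In Cyp1a2_CA it was -1.15 (adjusted p = 0.164), and -2.15 with limma-voom (adjusted p = 0.00494).

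Imprinted genes outside the 35 and the neighbours of the clusters moved both ways. Of 34 other imprinted genes in the table, 23 were tested in Cyp1a2_CA, with 8 rising and 4 falling, and 19 in Gls2_CA, with 8 rising and 6 falling. Beside 38.3% and 32.7%, and 39.2% and 34.0%, over all genes tested, these counts are no result about that list. Atp10a, a phospholipid flippase beside Ube3a, was among those that rose (6.28 ± 0.72 and 7.02 ± 0.92, edgeR adjusted p = 1.15e-06 and 2.97e-05), as was Nap1l4 (1.50 and 1.45). GAB235, a Ttn-high animal, held 75.2% of the summed Gls2_CA level of Atp10a. Without it the Gls2_CA value was 5.23 (edgeR adjusted p = 4.17e-10), and without the Ttn-high libraries the Cyp1a2_CA value was 5.53 (3.17e-07). Dcn, a matrix proteoglycan, fell in Gls2_CA (-1.48). In Cyp1a2_CA its value of -1.03 passed, and leaving out CAB145, CAB170, CAB28, CAB52, CAB228, CAB239 or any of 3 WT animals ended that call (edgeR adjusted p from 0.0510 to 0.0660). Of 27 neighbours, 22 were tested in each comparison: 10 rose and 8 fell in Cyp1a2_CA, and 11 rose and 8 fell in Gls2_CA, again beside 38.3% and 32.7%, and 39.2% and 34.0%, of all genes. Ppp2r5c, near Meg3, rose (2.90 and 2.92), as did Cep41 beside Mest (2.23 and 2.32). Plg near Igf2r (-2.07 and -2.46) and Chrac1 near Trappc9 (-1.93 and -1.87) fell. Their medians were 0.61 and 0.54 beside 2.06 and 2.01 for the imprinted genes tested, and no test compares them.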

How the data were processed

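Reads of 26 mouse liver libraries were used as whole-number read counts, one per gene row, which the authors deposited unnormalized, mapped to mm10 per the submitters' processing notes. Frozen fragments gave the RNA and a Nugen Ovation kit the libraries, per the labels' protocols. Neither the aligner and counter nor the strand setting of the counting is stated in the sources read.

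The 35 genes and all lists were chosen with earlier results of these data known. All 35 are named, and up to 4 genes of each list, by smallest p. The unit of replication was the animal number in the title: its libraries were added up. Every comparison was a separate edgeR 4.0.16 fit (R 4.3.3) with filterByExpr, TMM, robust quasi-likelihood and Benjamini-Hochberg adjustment over all genes tested, threshold 0.05, after tests on simulated counts. Group means ± SD are over animals and ranges over libraries. Alternatives were DESeq2 1.42.0, limma 3.58.1, other scalings, filters and units, thinning, leaving out samples, and an offset for exon length and GC fitted with mgcv (88% to 90.1% of genes matched). Correlations used log2 CPM with a prior count of 2. Nothing states that animal numbers are separate animals, and if they are not, p-values describe spread between samples and not between animals. Exon models are GENCODE's (mm10) and sequences RefSeq's (GRCm38.p6). Member promoters on chromosome 18, where Impact lies, were left out, and promoters were then at hand for 27 of the 35. All 26 libraries held Y-linked transcripts, and 2 also had Xist above 10 CPM.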

Additional observations from a re-analysis of the deposited data

Results flagged for a closer look

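In 80 sets of an imprinted gene in a group, the highest or lowest animal was compared with its neighbour by Dixon's ratio at the 95% level, which marks about 1 set in 20 by chance, and 10 were marked. Of these, 7 are GAB235, the Gls2_CA animal with high Ttn: it was far above the other 4 animals for Cdkn1c (19.87 CPM), Peg3 (593.1 CPM), Usp29 (6.624 CPM), Sgce (41.64 CPM), Mest (20.06 CPM) and Peg13 (34.13 CPM) and far below them for Slc22a18 (36.63 CPM). In Cyp1a2_CA, CAB52 was far below the others for Plagl1 (0.1713 CPM) and CAB225 far above for Nnat (35.73 CPM). In WT, WT_Cre-BL5 was far below for Mest (2.873 CPM).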

How the results depend on the processing

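Alternatives left the counts of imprinted genes that rose within 17 to 22 in Cyp1a2_CA and 16 to 21 in Gls2_CA (21 in each as reported), and 0 passed between the tumour groups under any. Of genes that fell, Cyp1a2_CA had 2 as reported, 6 with limma-voom, and 4 without the Ttn-high libraries or with the length and GC offset. Gls2_CA had 3 as reported, 5 with limma-voom, 6 without the Ttn-high library, and 3 to 6 when each animal was left out. Single-gene values against WT kept direction and side of the threshold in 782 of 826 cases for Cyp1a2_CA and 621 of 658 for Gls2_CA. Upper-quartile scaling moved the median of all genes from 0.17 to -0.05 and from 0.14 to -0.09 (log2). Calls of Sgce in Gls2_CA were also lost with every library a replicate (1.23, edgeR adjusted p = 0.0785) and all groups in 1 fit (1.67, 0.0550), and Snrpn with every library a replicate (0.58, 0.0503). The stricter filter dropped 4 of the imprinted genes tested in Cyp1a2_CA and 7 in Gls2_CA, Igf2 and H19 among the 7. In Gls2_CA against WT, DESeq2 gave no adjusted p for Cdkn1c, Peg3, Sgce, Ppp1r9a and Peg13. Genes with no value under an alternative are not among the 826 and 658 cases. No paired analysis was possible because the animal numbers in the titles are not shared between groups.

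Directions turned against WT as follows, and the cause was not tested. In Cyp1a2_CA, limma-voom gave -0.72 for Phlda2, -0.73 for Peg3 and -1.14 for Peg10, and Peg10 was -0.053 without CAB52 (range -0.053 to 1.05 with each animal left out). In Gls2_CA, Peg13 was -0.109 with every library a replicate, -1.06 with limma-voom and -1.04 without the Ttn-high library (range -1.04 to 0.59). Peg3 was -0.77 with limma-voom and -0.96 without that library (range -0.96 to 3.77), and Grb10 was -0.14 with the offset. For genes outside the 35, the same alternatives were chosen after seeing the data, as was the correlation of Cdkn1c and Kcnq1ot1 without the Ttn-high animals. There, only Igf1r turned, to -0.25 in Cyp1a2_CA with the offset.

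Between the tumour groups, where no value passed, signs turned under 45 of 750 alternatives. With every library a replicate, Kcnq1ot1 was 0.15 and Peg3 0.21, and with the first library of each animal Kcnq1ot1 was 0.0245, Rian 0.18, Mirg 0.42 and Rtl1 0.275. With limma-voom, H19 was -1.01, Cdkn1c -0.25, Kcnq1ot1 0.15, Peg3 0.0882 and Peg13 0.33. Without the Ttn-high libraries, Kcnq1ot1 was 0.17, Peg3 1.03 and Nnat -0.0002, and without CAB52 and GAB242 Sgce was -0.32. Leaving out each animal gave ranges of -0.22 to 6.48 for H19, -0.19 to 1.32 for Cdkn1c, -0.14 to 0.39 for Kcnq1ot1, -1.14 to 0.034 for Rian, -1.17 to 0.46 for Mirg, -1.36 to 0.16 for Rtl1, -2.21 to 3.99 for Peg3, -0.0753 to 1.57 for Sgce, -0.15 to 1.31 for Ppp1r9a and -0.90 to 0.80 for Peg13. WT depth limits genes under about 1 CPM, such as Dlk1, Mirg and the precursor rows.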
